A study of Mus musculus with 6 samples.

Results

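Axon guidance genes encode the ligands and receptors by which a cell reads repulsive and attractive cues from its neighbours and its matrix. Semaphorins signal through plexins, with neuropilins as co-receptors for the secreted class, ephrins signal through Eph receptor kinases at cell contacts, Slits through Robo receptors, and netrins through the Unc5, Dcc and neogenin receptors. In heart and vessels the same genes are known for outflow tract septation, for the boundary between arteries and veins, and for the control of adhesion and migration. The 65 genes described here were taken by name from the 33682 rows of the deposited expression table, of which 22250 are protein-coding. They are all protein-coding rows named as members of the semaphorin, plexin, neuropilin, ephrin, Eph, Slit, Robo or Unc5 families, with netrins Ntn1 and Ntn4, and comprise 33 ligands and 32 receptors.

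Expression was measured by RNA sequencing in 6 cultures of neonatal rat heart cells of wild-type genotype, 3 given conditioned medium from wild-type mast cells (WT medium) and 3 given conditioned medium from Alox5-/- mast cells (Alox5KO medium). The mast cells, grown from bone marrow, had been treated with TNF-alpha in both groups, and the time in the medium and the age of the animals are not given in the sources used here. Alox5 encodes 5-lipoxygenase, which begins leukotriene synthesis. Nothing in the labels ties the replicates to separate cell preparations, so a p-value here reflects the scatter of the 3 samples of each group, possibly technical scatter alone. No culture without mast cell medium was analysed here, so each value below is a level under one medium against the other.

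The cells are labelled as cardiomyocytes, whereas the series' design text names fibroblasts, and fibroblast markers were far more abundant than those of cardiomyocytes. A list of 10 fibroblast markers summed to between 10736 and 12706 FPKM (fragments scaled to gene length and library size) over the 6 libraries, with 2 markers called higher and 3 lower. Higher with Alox5KO medium were Col3a1 and Vim (log2 fold changes 0.84 and 0.80), and lower were Dcn, Lum and Pdgfra (-4.10, -2.10 and -1.09). Dcn had means of 2219 FPKM with WT medium and 134 with Alox5KO medium. The 9 matched cardiomyocyte markers summed to between 27.8 and 50.7 FPKM with WT medium and between 91.3 and 114 with Alox5KO medium. Of 6 tested markers 3 were higher, among them Tnnt2, with means of 23.0 FPKM with WT medium and 79.9 with Alox5KO medium. Tnnt2 made up most of the sum with either medium. Nppa had means of 12.9 and 14.5 FPKM and did not pass, and Ryr2 and Mb were near 0. The 10 smooth muscle and pericyte markers summed to between 79.6 and 106 FPKM with WT medium and between 192 and 318 with Alox5KO medium, with 6 of 9 tested markers higher and 2 lower. Endothelial markers (9 matched, 1 of 2 tested lower) summed to between 13.7 and 16.1 FPKM and between 12.6 and 13.6. Most of this sum was Tek, the marker called lower, and Egfl7, which did not pass. Cdh5 and Kdr were near 0 and Emcn was listed at 0. Schwann cell and neuronal markers (3 tested, 0 called) summed to between 36.5 and 61.1 and between 40.9 and 78.1 FPKM. Leukocyte and mast cell markers (1 of 3 tested lower) summed to between 53.9 and 64.7 and between 29.6 and 46.1 FPKM. The largest of these was the mast cell gene Cpa3, the marker called lower, with means of 45.4 and 19.6 FPKM, whereas Tpsb2 and Fcer1a were listed at 0. In these bulk samples fewer cells of a type and less RNA per cell cannot be told apart, and the part of these markers in the guidance gene results was not tested. The libraries held between 13284088 and 15766187 reads, recovered from the deposited values. WT replicate 3 stood apart from the other WT libraries on the second principal component of all tested genes (score -25.0, against 8.48 and 11.1).

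Guidance genes moved in both directions with the medium, within families as well as between them. On the log2(FPKM + 1) scale the largest called changes were a rise of the EphB receptor gene Ephb3, from 2.07 ± 1.19 FPKM in WT medium to 9.20 ± 0.989 in Alox5KO medium (mean ± SD, 3 samples each), and falls of the secreted semaphorin Sema3b, from 4.70 ± 0.450 to 1.09 ± 0.214, of the semaphorin receptor Plxnd1, from 15.1 ± 2.70 to 5.71 ± 0.312, and of the netrin Ntn1, from 16.0 ± 1.75 to 6.54 ± 1.69. With a pseudocount of 0.1 the falls of the membrane semaphorin Sema5a (log2 fold change -1.75) and of Epha1 (-1.43) were larger than those of Plxnd1 (-1.37) and Ntn1 (-1.30). The called rises of Plxna4 (1.42) and Epha7 (1.385) were then also larger in size than the falls of Plxnd1 and Ntn1. That of Robo2 (1.31) was close in size to the fall of Ntn1. Of the 65 genes, 41 had a mean of at least 1 FPKM over the 6 samples and were tested, and 24 were under this minimum, 3 of them listed at 0 in every sample. Limma on log2(FPKM + 1), with Benjamini-Hochberg adjustment at 0.05 over all 12341 tested genes, called 11 higher and 7 lower with Alox5KO medium, and 23 did not pass. Among all tested genes 20.7% were called, 10.0% higher and 10.6% lower, against 43.9%, 26.8% and 17.1% of the tested guidance genes. Called changes reached 1 log2 unit in size for 2 higher and 5 lower genes, 17.1% of the tested guidance genes and 6.39% of all tested genes. The groups did not overlap for 24 of 41, including all 18 called, a share of 58.5% where the background is 37.6%. Among the 22 tested ligands 5 rose and 5 fell, and among the 19 tested receptors 6 rose and 2 fell. The median log2 fold change (Alox5KO medium minus WT medium) was 0.19 over the 41 genes and -0.00082 over all tested genes.

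The filter on the mean bears on these counts, because a gene near it passes through the group in which it is high. Of the 41 tested genes 5 had a WT mean under 1 FPKM (3 called) and 2 an Alox5KO mean under 1 FPKM (both called). Over the 34 guidance genes with both means at 1 FPKM or more, 8 rose, 5 fell and 21 did not pass, or 38.2% called, against 19.4% of the 11773 genes meeting the same condition. The number of rises also rested on single libraries: it was 6 without WT replicate 1, 5 without WT replicate 2 and 7 without Alox5KO replicate 3, where the rises among all tested genes went from 1238 to 791, 856 and 891, whereas the falls numbered 6 or 7 with any 1 library left out.

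**Figure D1:**
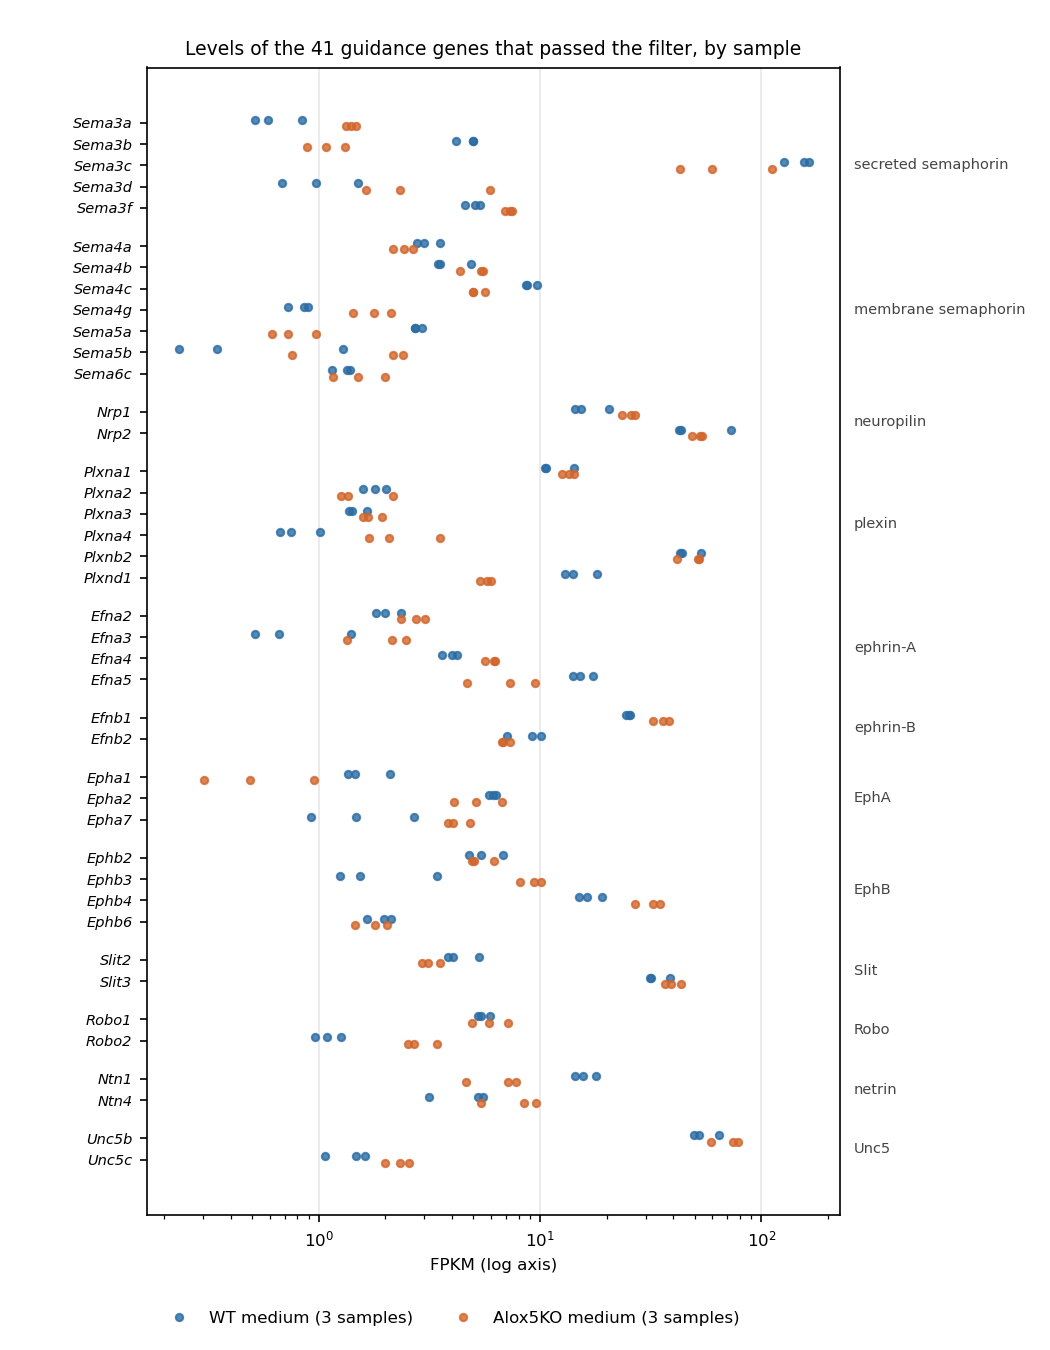
FPKM (log axis) of each tested guidance gene in each of the 6 samples, grouped by family, with WT medium in blue and Alox5KO medium in orange. Sema3c, Unc5b, Nrp2, Plxnb2 and Slit3 lie to the right, and the groups are apart for Sema3b, Plxnd1, Sema5a, Ntn1, Efna5, Ephb3, Ephb4 and Robo2.

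**Figure D2:**
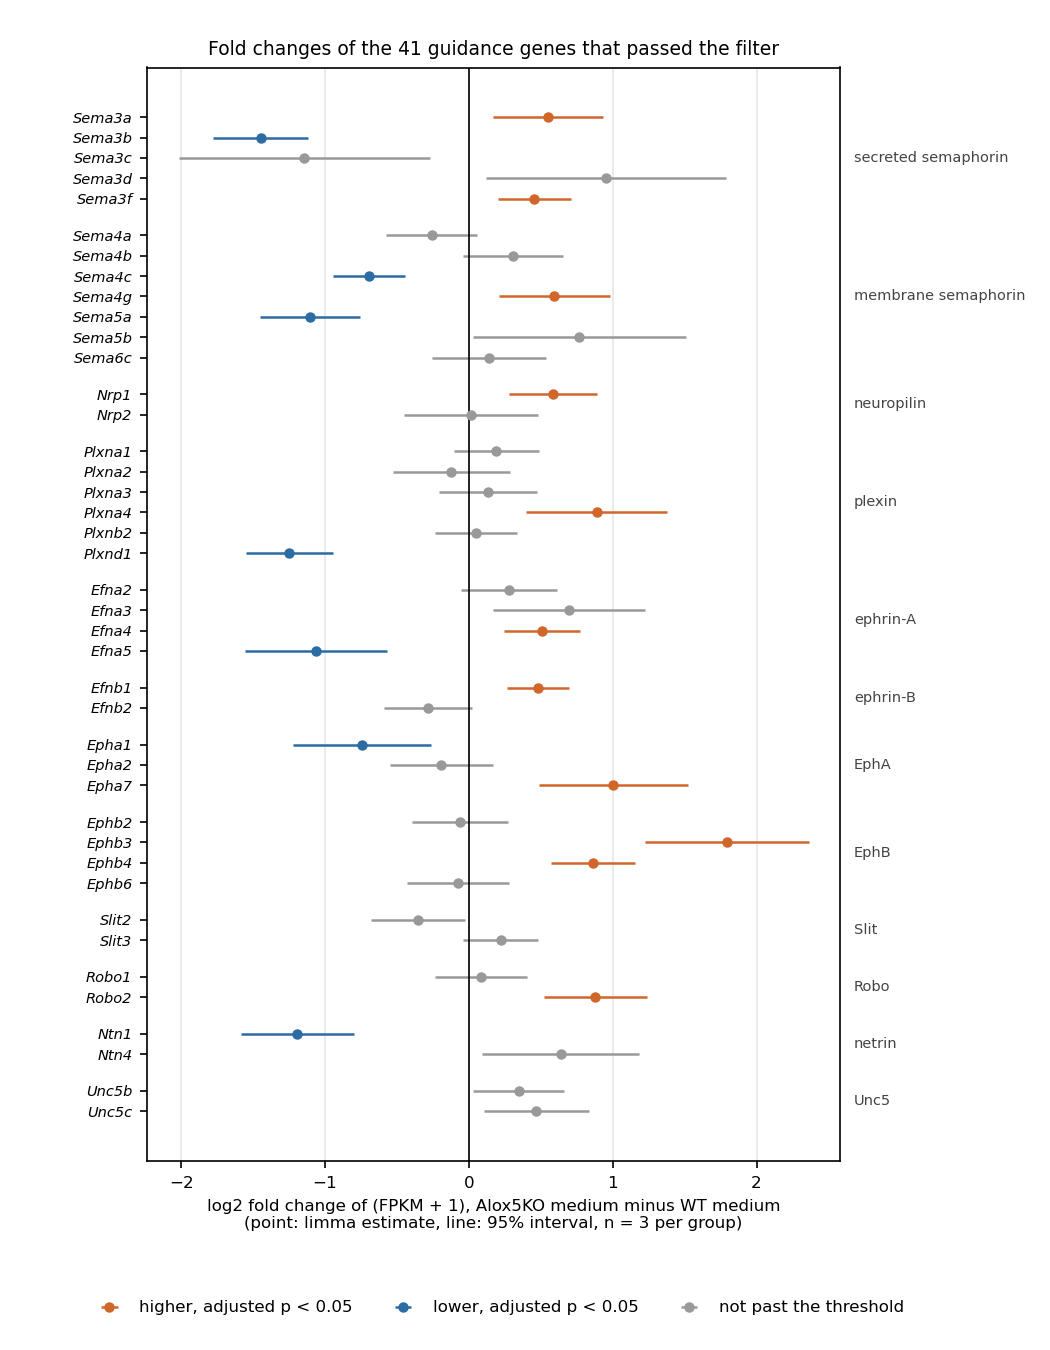
Log2 fold changes of the same 41 genes with their 95% intervals from limma (n = 3 per group), Alox5KO medium minus WT medium. The 11 called rises are in orange, the 7 called falls in blue, and the 23 genes that did not pass in grey.

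The secreted class 3 semaphorins were dominated by a single gene. Sema3c, a ligand of neuropilin and plexin complexes known for its part in outflow tract septation, had 156, 163 and 126 FPKM in WT medium against 60.1, 112 and 43.0 FPKM in Alox5KO medium. It was the most abundant guidance gene, above 93.8% of all tested genes, and made up between 91.1% and 93.7% of the summed FPKM of the 7 class 3 genes with WT medium and between 77.7% and 87.2% with Alox5KO medium. Every Alox5KO-medium sample was below every WT-medium sample, but Alox5KO replicate 2 lay close to the WT values, and the difference did not pass the test. The log2 fold change was -1.14 (95% interval -2.02 to -0.27, adjusted p = 0.077, limma). Without Alox5KO replicate 2 it was -1.52 with an adjusted p of 0.00086 (limma), and with a constant prior variance for all genes the adjusted p was 0.045. Sema3d, whose product is known from the patterning of cardiac veins, was also highest in that library. Levels of this gene were 0.975, 1.50 and 0.684 FPKM in WT medium against 2.33, 5.92 and 1.63 FPKM in Alox5KO medium, apart in the opposite direction, and did not pass at a log2 fold change of 0.95 (adjusted p = 0.11, limma).

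Sema3b, a semaphorin known as a growth suppressor in tumours, was the member with the smallest adjusted p. Its levels were 4.95, 4.18 and 4.96 FPKM in WT medium against 1.31, 0.885 and 1.08 FPKM in Alox5KO medium, a 4.30-fold lower mean. The groups were far apart relative to their spread, with a log2 fold change of -1.45 (95% interval -1.78 to -1.12, adjusted p = 0.00018, limma). Sema3f, a ligand for neuropilin 2, lies beside it on chromosome 8, Sema3b from 116354073 to 116361343 and Sema3f from 116437696 to 116469915 as the table places them, both on the minus strand and 76.4 kb apart. It moved the other way, from 5.10, 4.58 and 5.35 FPKM to 6.92, 7.46 and 7.31 FPKM. The groups did not overlap and the log2 fold change was 0.46 (adjusted p = 0.019, limma). The Sema3f call did not survive leaving out WT replicate 1, WT replicate 2, Alox5KO replicate 2 or Alox5KO replicate 3, with adjusted p of 0.069, 0.087, 0.052 and 0.052 (limma).

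Sema3a, the classic growth cone repellent and a ligand of neuropilin 1 with plexin A receptors, was of low abundance. Levels of this gene were 0.588, 0.516 and 0.838 FPKM in WT medium against 1.48, 1.40 and 1.33 FPKM in Alox5KO medium, on 92 and 221 reads summed over each group. All Alox5KO-medium samples were above all WT-medium samples. The log2 fold change of 0.55 was at the edge of the threshold (adjusted p = 0.0496, limma), and the call was lost with 5 of the 6 libraries left out in turn (adjusted p 0.092 to 0.16, limma), all but WT replicate 3, and with a pseudocount of 0.1 (log2 fold change 1.03, adjusted p 0.062, limma). Sema3e, a ligand that binds plexin D1 without a neuropilin, was under the filter. It had between 0.0290 and 0.0924 FPKM with WT medium and between 0.412 and 0.578 with Alox5KO medium, or 14 against 121 reads, and with no filter on low values its log2 fold change was 0.49 (adjusted p = 0.0073, limma). Sema3g, also under the filter, stayed between 0.160 and 0.503 FPKM in all 6 samples.

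Of the 13 membrane semaphorins 7 were tested, and 2 fell and 1 rose. Sema5a, a semaphorin with thrombospondin repeats, had 2.72, 2.73 and 2.92 FPKM in WT medium against 0.727, 0.968 and 0.615 FPKM in Alox5KO medium. These groups were widely separated, with a log2 fold change of -1.10 (95% interval -1.45 to -0.75, adjusted p = 0.0011, limma), or -1.75 with a pseudocount of 0.1. Sema4c, a ligand of plexin B2 and the most abundant of this class by its mean over all 6 samples, had 9.66, 8.70 and 8.61 FPKM against 4.96, 4.95 and 5.62 FPKM. The groups did not overlap, and the log2 fold change was -0.69 (95% interval -0.95 to -0.44, adjusted p = 0.0023, limma). In Alox5KO replicate 2 Sema4b was above Sema4c, at 5.55 FPKM.

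Sema4g rose from 0.827 ± 0.0914 to 1.77 ± 0.348 FPKM (mean ± SD, 3 samples each), by 0.60 on the log2 scale (adjusted p = 0.036, limma), a call lost without WT replicate 1, WT replicate 2, WT replicate 3, Alox5KO replicate 1 or Alox5KO replicate 3 (adjusted p 0.12, 0.089, 0.055, 0.095 and 0.12, limma). Sema4a, Sema4b and Sema6c had log2 fold changes of -0.26, 0.30 and 0.14 that did not pass. Sema5b, the close relative of Sema5a, had 0.347, 0.232 and 1.29 FPKM and 2.15, 0.753 and 2.40 FPKM. WT replicate 3 lay above Alox5KO replicate 2, so the groups overlapped, and the log2 fold change of 0.77 did not pass (adjusted p = 0.14, limma). It passed without WT replicate 3 (log2 fold change 1.05, adjusted p 0.044, limma) or Alox5KO replicate 2 (1.07, adjusted p 0.035). Under the filter were Sema4d, Sema4f, Sema6a, Sema6b, Sema6d and Sema7a, none above 1.07 FPKM in any sample. Of these Sema6a had 33 reads with WT medium and 101 with Alox5KO medium, and Sema6b had 48 and 9. Sema7a, a semaphorin anchored by lipid that binds plexin C1, had 16 and 61.

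Among the semaphorin receptors Plxnd1 fell and Plxna4 and Nrp1 rose. Plexin D1 is the receptor of Sema3e and, with neuropilins, of other class 3 semaphorins, and is best known from endothelium. Its gene, on chromosome 4 from 147854309 to 147893992 as the table places it, had 14.1, 13.0 and 18.1 FPKM in WT medium against 5.38, 5.77 and 5.99 FPKM in Alox5KO medium. The lowest WT-medium sample was more than 2-fold above the highest Alox5KO-medium sample. The log2 fold change was -1.25 (95% interval -1.55 to -0.95, adjusted p = 0.00024, limma). Its share of the summed FPKM of the 9 plexins went from between 17.9% and 19.7% to between 7.13% and 8.21%. Of 2 tested endothelial markers Tek was lower, with means of 5.17 and 3.14 FPKM, and Egfl7 did not pass, with means of 8.64 and 8.43 FPKM. Erg, under the filter, had means of 0.292 and 1.19 FPKM. Cdh5 and Kdr had no more than 0.138 and 0.0328 FPKM in any sample. Whether endothelial cells had a part in the fall of Plxnd1 was not tested.

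Plxnb2, the plexin B2 receptor and the most abundant plexin, had 42.9, 44.0 and 53.6 FPKM in WT medium against 41.8, 52.0 and 51.5 FPKM in Alox5KO medium. The ranges overlapped almost wholly, and the interval of the log2 fold change ran from -0.24 to 0.33, with an estimate of 0.05. Plxna1, the next plexin by level, had 10.6, 10.5 and 14.2 FPKM against 12.6, 14.2 and 13.6 FPKM and did not pass (log2 fold change 0.19, 95% interval -0.10 to 0.49). Plxna2 and Plxna3, both under 2.2 FPKM in every sample, had log2 fold changes of -0.12 and 0.14 that did not pass. Plxna4, a plexin A with roles in sensory and sympathetic axons, rose from 0.750, 0.669 and 1.01 FPKM to 1.68, 3.52 and 2.07 FPKM. The groups did not overlap and Alox5KO replicate 2 was again the highest, with a log2 fold change of 0.89 (adjusted p = 0.019, limma). The Plxna4 call was lost without WT replicate 1 or WT replicate 2 (adjusted p 0.058 and 0.059, limma). Plxnb1, the Sema4d receptor, was under the filter, with 0.465, 0.294 and 0.710 FPKM against 0.999, 1.03 and 1.88 FPKM. Its groups did not overlap, and with no filter its log2 fold change was 0.62 (adjusted p = 0.094, limma). Plxnb3 was under the filter with 3 and 2 reads. Plxnc1, the receptor of Sema7a, was under the filter too, with 0.527, 0.837 and 0.586 FPKM against 0.153, 0.209 and 0.140 FPKM, and with no filter its log2 fold change was -0.49 (adjusted p = 0.026, limma).

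The neuropilins are co-receptors for class 3 semaphorins and for VEGF. Nrp1 had 14.4, 15.4 and 20.5 FPKM in WT medium against 25.9, 23.6 and 26.8 FPKM in Alox5KO medium. The groups did not overlap, and the log2 fold change was 0.59 (95% interval 0.28 to 0.89, adjusted p = 0.014, limma). The Nrp1 call was lost without WT replicate 1, WT replicate 2 or Alox5KO replicate 3 (adjusted p 0.064, 0.053 and 0.057, limma). Nrp2 had 43.5, 42.3 and 72.9 FPKM and 48.6, 54.2 and 52.7 FPKM. Here WT replicate 3 was above every other sample while the remaining WT libraries were below every Alox5KO-medium sample. Its log2 fold change was 0.02 (95% interval -0.45 to 0.48), and 0.27 without WT replicate 3 (adjusted p = 0.097, limma). Whether Nrp1 and Nrp2 differ in their response was not tested.

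**Figure D3:**
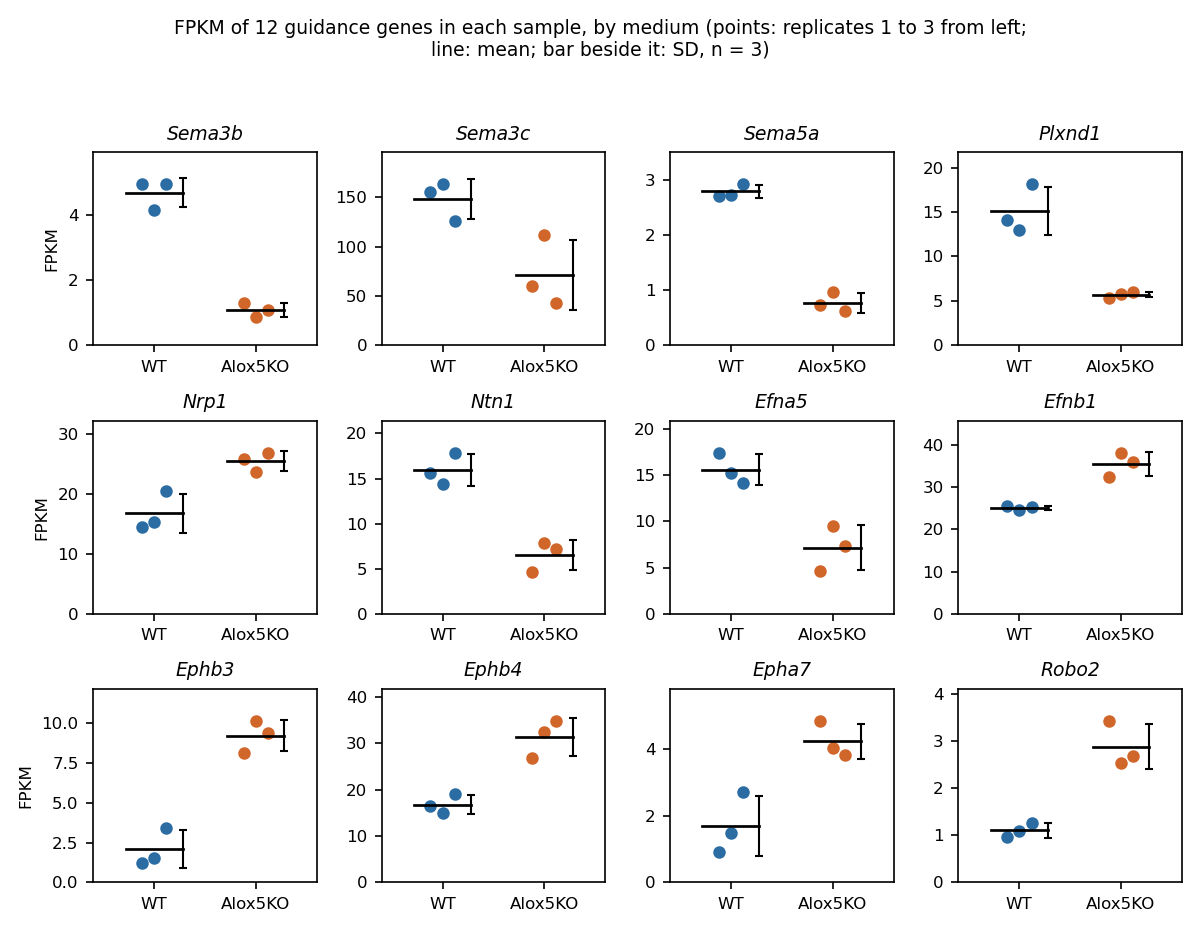
FPKM of 12 guidance genes in each sample (points, replicates 1 to 3 from left), with the mean (line) and SD (bar) of the 3 samples of each medium; each panel has its own axis from 0. Sema3b, Sema5a, Plxnd1, Ntn1 and Efna5 are lower with Alox5KO medium in all samples, while Sema3c replicate 2 with Alox5KO medium, at 112 FPKM, comes near the lowest WT-medium sample at 126 FPKM.

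Ephrins and their receptors divided by member. Ephrin-A ligands are anchored in the membrane by lipid and ephrin-B ligands span it, and both can signal back into the cell that carries them. Efna5 had 17.4, 15.2 and 14.1 FPKM in WT medium against 4.65, 9.45 and 7.34 FPKM in Alox5KO medium. All Alox5KO-medium samples were below all WT-medium samples, with a log2 fold change of -1.06 (95% interval -1.56 to -0.57, adjusted p = 0.0096, limma). Efna4 rose from 4.22, 4.02 and 3.61 FPKM to 6.23, 5.67 and 6.19 FPKM. The groups did not overlap, with a log2 fold change of 0.51 (95% interval 0.24 to 0.77, adjusted p = 0.014, limma), and the call was lost without Alox5KO replicate 1 (adjusted p 0.051, limma). The share of Efna5 went from between 64.4% and 69.8% of the summed ephrin-A FPKM with WT medium to between 28.6% and 45.6% with Alox5KO medium.

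Efna1, Efna3 and Efna4 lie together on chromosome 2, on the minus strand within the table's positions 188588796 to 188660179. Efna3 had 0.515, 0.661 and 1.40 FPKM against 1.34, 2.15 and 2.49 FPKM, where WT replicate 3 was above the lowest Alox5KO-medium sample, and its log2 fold change of 0.69 did not pass (adjusted p = 0.067, limma), whereas without WT replicate 3 it was 0.89 with an adjusted p of 0.024 (limma). Efna1, under the filter, had 0.416, 0.346 and 0.811 FPKM against 1.29, 1.12 and 1.46 FPKM, groups that did not overlap, with an adjusted p of 0.054 when no filter was used (limma). Efna2, on chromosome 7, did not pass, at a log2 fold change of 0.28 (95% interval -0.05 to 0.61).

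Of the ephrin-B genes Efnb1 was the most abundant and rose. It had 25.4, 24.5 and 25.3 FPKM in WT medium against 32.3, 38.1 and 35.9 FPKM in Alox5KO medium. The WT-medium samples were within 1 FPKM of each other and all were below the Alox5KO-medium samples, a log2 fold change of 0.48 (95% interval 0.26 to 0.69, adjusted p = 0.0069, limma). Efnb2, known as the arterial ephrin, had 10.0, 9.15 and 7.11 FPKM against 6.74, 6.82 and 7.30 FPKM. WT replicate 3 lay among the Alox5KO-medium values, and the log2 fold change of -0.29 did not pass (95% interval -0.59 to 0.02), whereas without that library it was -0.41 with an adjusted p of 0.042 (limma). Efnb3 was under the filter, with 10 and 2 reads.

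The EphB receptors, kinases that bind mainly ephrin-B ligands, had 2 rises among 4 tested genes. Ephb3, on chromosome 11 from 83527962 to 83546674 as the table places it, had 1.24, 1.54 and 3.43 FPKM in WT medium against 8.14, 10.1 and 9.36 FPKM in Alox5KO medium, a 4.44-fold higher mean. WT replicate 3 was the highest of its group but still far below the lowest Alox5KO-medium sample. The log2 fold change was 1.79 (95% interval 1.23 to 2.36, adjusted p = 0.0015, limma). Ephb4, the receptor of ephrin B2 known from veins, was the most abundant EphB gene and had 16.4, 14.9 and 19.0 FPKM against 26.7, 32.5 and 34.7 FPKM. Again the groups did not overlap, with a log2 fold change of 0.86 (95% interval 0.57 to 1.15, adjusted p = 0.0016, limma). Ephb2, at 5.40, 4.80 and 6.80 FPKM against 5.01, 6.17 and 4.91 FPKM, had its Alox5KO-medium values inside the range of the WT-medium values (log2 fold change -0.06, 95% interval -0.40 to 0.27). Ephb6, a kinase-dead family member, overlapped in part and did not pass (log2 fold change -0.08, 95% interval -0.43 to 0.28). The EphB genes together summed to between 22.9 and 31.4 FPKM with WT medium and between 41.3 and 51.1 FPKM with Alox5KO medium, and the share of Ephb3 in that sum went from between 4.96% and 10.9% to between 18.3% and 20.0%. Ephb1 was under the filter, at no more than 0.120 FPKM.

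The EphA receptors, which bind mainly ephrin-A ligands, were of lower abundance, with 3 of 8 tested. Epha7 had 0.925, 1.47 and 2.70 FPKM in WT medium against 4.84, 4.04 and 3.83 FPKM in Alox5KO medium. Each Alox5KO-medium sample was above each WT-medium sample, among which replicate 3 was the highest. The log2 fold change was 1.00 (95% interval 0.48 to 1.52, adjusted p = 0.014, limma), and the adjusted p was 0.05004 without WT replicate 2 and 0.059 without Alox5KO replicate 1. Epha1 fell from 1.36, 1.45 and 2.09 FPKM to 0.954, 0.304 and 0.488 FPKM, groups that did not overlap, by 0.74 on the log2 scale (adjusted p = 0.036, limma). The Epha1 call was lost without any 1 library other than Alox5KO replicate 1 (adjusted p 0.067 without WT replicate 1, 0.075 without WT replicate 2, 0.099 without WT replicate 3, 0.090 without Alox5KO replicate 2 and 0.10 without Alox5KO replicate 3, limma). Epha2, the most abundant EphA gene and a receptor of epithelia and many tumours, had 6.30, 5.91 and 6.12 FPKM against 4.09, 6.72 and 5.15 FPKM. The WT-medium values fell inside the range of the Alox5KO-medium values, with a log2 fold change of -0.19 (95% interval -0.55 to 0.17). Epha4 was just under the filter, between 0.780 and 1.31 FPKM with overlapping groups. Epha3, also under the filter, had 6 reads with WT medium and 49 with Alox5KO medium, a log2 fold change of 0.20 when no filter was used (adjusted p = 0.036, limma), while Epha5, Epha8 and Epha10 had between 1 and 13 reads per group.

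**Figure D4:**
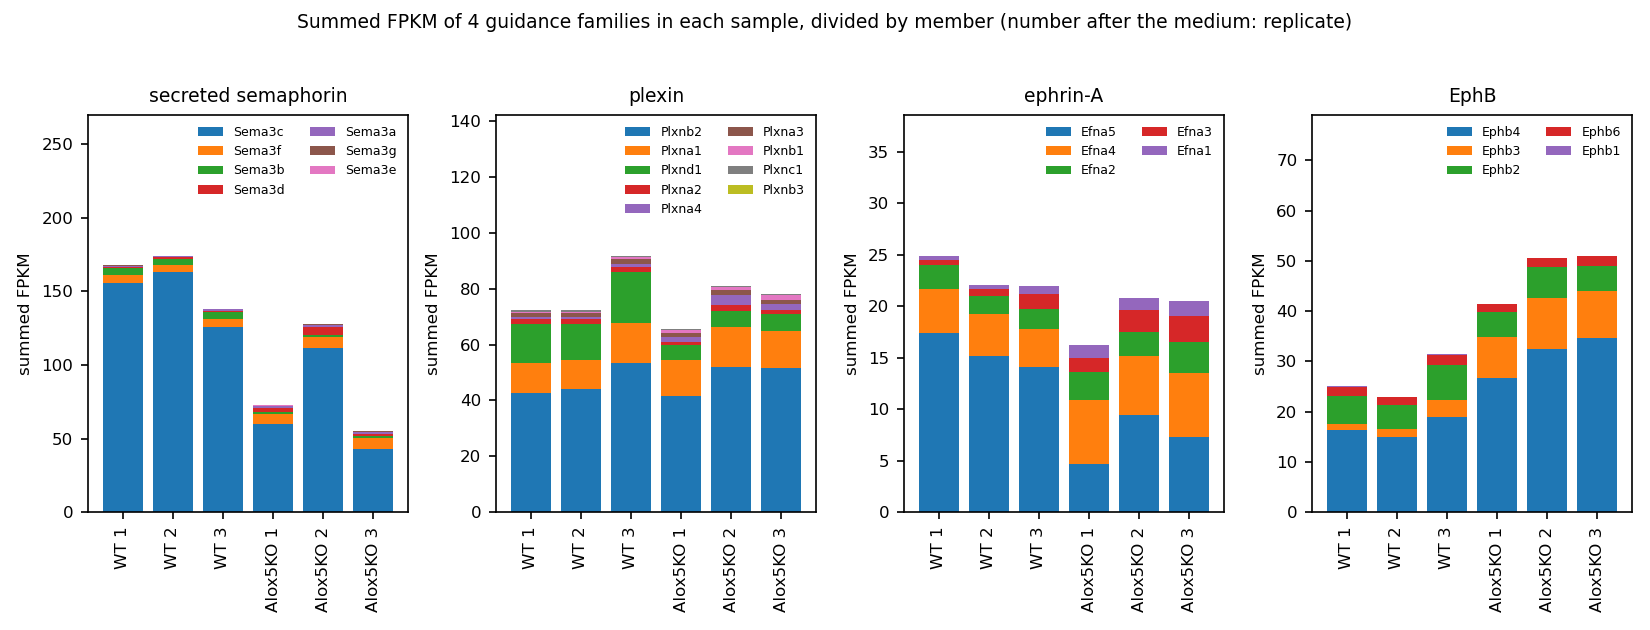
Summed FPKM of the secreted semaphorins, plexins, ephrin-A ligands and EphB receptors in each sample, divided by member; each panel has its own axis from 0. Sema3c fills most of the first panel in every sample, Plxnd1 (green) takes a smaller part of the plexin bars with Alox5KO medium, and the EphB bars are taller in all 3 Alox5KO-medium samples.

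Slit ligands, secreted repellents that bind Robo receptors and heparan sulfate, did not pass the test. Slit3, known as the Slit of muscle and mesenchymal tissue, had 31.4, 31.6 and 38.8 FPKM in WT medium against 36.7, 43.4 and 39.0 FPKM in Alox5KO medium. WT replicate 3 lay among the Alox5KO-medium values, and the log2 fold change was 0.22 (95% interval -0.04 to 0.48). Slit2 had 3.82, 4.04 and 5.29 FPKM against 3.53, 3.11 and 2.94 FPKM. These groups did not overlap, but the log2 fold change of -0.35 did not pass (adjusted p = 0.13, limma). Slit1, known mainly from brain, had a single read in all 6 libraries.

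Of the Slit receptors Robo2 rose and Robo1, which lies 919 kb from it on chromosome 11, did not pass. Robo2 had 0.956, 1.09 and 1.26 FPKM in WT medium against 3.41, 2.53 and 2.69 FPKM in Alox5KO medium. The groups were well separated, and the log2 fold change was 0.88 (95% interval 0.52 to 1.24, adjusted p = 0.0041, limma), or 1.31 with a pseudocount of 0.1. Robo1 was the more abundant, with 5.42, 5.22 and 5.93 FPKM against 4.90, 7.15 and 5.85 FPKM. All WT-medium values of Robo1 lay inside the range of the Alox5KO-medium values (log2 fold change 0.08, 95% interval -0.24 to 0.41). Robo3 and Robo4, the latter an endothelial receptor, were listed at 0 in all 6 samples.

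Netrins are laminin-related cues. Ntn1, on chromosome 10 from 54761871 to 54967585 as the table places it, had 15.6, 14.4 and 17.9 FPKM in WT medium against 4.62, 7.82 and 7.19 FPKM in Alox5KO medium. The groups were well apart, with a log2 fold change of -1.19 (95% interval -1.59 to -0.80, adjusted p = 0.00145, limma). Ntn4, a netrin of basement membranes that binds laminin, had 5.24, 3.16 and 5.53 FPKM against 8.44, 5.40 and 9.55 FPKM. Alox5KO replicate 2 lay among the WT-medium values, and the log2 fold change of 0.64 did not pass (adjusted p = 0.10, limma), whereas without that library it was 0.85 with an adjusted p of 0.026 (limma). The share of Ntn1 in the sum of both went from between 74.9% and 82.0% to between 35.4% and 59.1%.

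The netrin receptor gene Unc5b was the second most abundant guidance gene, with 49.7, 52.0 and 64.5 FPKM against 59.0, 74.8 and 78.6 FPKM. Its ranges overlapped, and the log2 fold change of 0.35 did not pass (95% interval 0.03 to 0.66, adjusted p = 0.12, limma). Without WT replicate 3 or without Alox5KO replicate 1 it was 0.46 or 0.47, with adjusted p of 0.047 and 0.049 (limma). Unc5c had 1.06, 1.62 and 1.47 FPKM against 2.33, 2.56 and 1.99 FPKM, groups that did not overlap, and did not pass at a log2 fold change of 0.47 (adjusted p = 0.074, limma), whereas on recovered reads weighted by their precision (limma voom) it was 0.77 with an adjusted p of 0.010. Unc5a had 13 and 4 reads, and Unc5d was listed at 0 in all samples. Neo1, which encodes the netrin receptor neogenin and belongs to the partner genes below rather than the 65, had 9.50, 10.5 and 10.6 FPKM against 13.9, 14.5 and 13.4 FPKM (log2 fold change 0.41, adjusted p = 0.017, limma), and the netrin receptor gene Dcc was listed at 0 in all 6 samples. Neo1 and Dcc were named outside the rule for partner genes.

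Genes listed as partners in guidance signalling, with products inside the cell, at its surface or secreted, also moved in both directions. Of a list of 83 such genes 82 were in the table and 64 were tested, of which 21 rose, 8 fell and 35 did not pass, or 45.3% called against 20.7% of all tested genes. The list was chosen with earlier results of these data known, so these shares cannot show that partner genes changed more often than others. The condition of both means at 1 FPKM or more was not applied to it. The median log2 fold change of the tested partner genes was 0.13. The rises numbered 13 without WT replicate 1, 13 without WT replicate 2 and 14 without Alox5KO replicate 3. Those among all tested genes went from 1238 to 791, 856 and 891. The falls numbered 4 without WT replicate 1 and 5 without Alox5KO replicate 1, where those among all tested genes went from 1313 to 862 and 1035. Rnd1, whose product binds plexins, had 184, 174 and 140 FPKM in WT medium against 33.6, 46.2 and 39.9 FPKM in Alox5KO medium. The groups were widely separated, with a log2 fold change of -2.03 (adjusted p = 2.2e-05, limma). The others named by their small p were Limk1, the kinase that phosphorylates cofilin, and Tiam1, a Rac exchange factor, which fell by 1.65 and 1.63 on the log2 scale, and Kalrn, which encodes kalirin, and Mical2, an actin-oxidising enzyme, which rose by 1.47 and 1.34. Sdc1, Vasp and Rras, a heparan sulfate proteoglycan, an actin polymerisation factor and a GTPase targeted by plexins, rose by 0.58, 0.74 and 0.62.

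Single libraries weighed on the guidance genes unequally. WT replicate 3 was the library farthest from the mean of the other WT libraries for 27 of the 41 tested guidance genes (65.9%, against 48.7% of all tested genes), and it was the highest of its group for 31, as it was for 39.5% of all tested genes. In the Alox5KO group replicate 1 was the farthest for 20, replicate 2 for 16 and replicate 3 for 5, against 32.7%, 34.0% and 33.3% of all tested genes. Alox5KO replicate 2 was the highest for 20, and for 32.5% of all tested genes. Without WT replicate 3 the counts were 13 higher and 7 lower.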

How the data were processed

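TRIzol RNA was made into NEBNext Ultra libraries, per the labels' protocols. The submitters' processing notes name, with no roles, the tools featureCounts 1.5.0-p3, HISAT2 2.0.5, fastp, DESeq2 1.20.0 and CASAVA 1.8 and the build mm10. The authors deposited 1 FPKM column per sample. The labels give mouse as the organism, but of 33682 rows 32883 have identifiers of rat genes in Ensembl, 0 of mouse genes and 799 of neither. Neither the rat build nor the use of strand is given in the sources used here; coordinates are the table's own, and overlapping or antisense genes are uncertain. Value times gene length was a whole multiple of 1 step per column (100% of values above 0 within 0.05 reads), which gave the reads behind each value. A 1 kb gene with 3 reads has 0.185 to 0.228 FPKM, which covers counting error only.

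Values were analysed as log2(FPKM + 1), which understates changes of low genes. Genes averaging 1 FPKM or more over the 6 samples (12341) entered a limma fit (version 3.58.1, R 4.3.3, mean-variance trend, robust prior, two-sided, Benjamini-Hochberg over all tested genes at 0.05, group as the single term). The fit was also run on simulated reads with the same dispersion for every gene and no outlying library, a check of the code rather than of the calls in these data. Unc5cl and Unc50 were not counted as Unc5 receptors. Every member was to be named, with values of each sample for called members changed by at least 1 log2 unit, the most abundant of each family and their ligands or receptors, and up to 8 partner genes with the smallest p. Members, lists and this rule were chosen with earlier results of these data known. No pair of libraries within a group was a duplicate. The lowest chi-square per degree of freedom was 6.29, for WT replicates 1 and 2, against 18.0 to 25.3 for the other pairs.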

Additional observations from a re-analysis of the deposited data

How the results depend on the processing

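The 16 alternatives were pseudocounts of 0.1 and 0.5, no filter, a filter of 5 FPKM, quantile normalization, median centring, TPM scaling, no trend with no robust prior, voom on recovered reads, a replicate block and each of 6 libraries left out. None of the 18 called guidance genes changed direction in any of them. The calls of 10 (Ephb3, Ephb4, Robo2, Efna5, Efnb1, Sema4c, Sema5a, Ntn1, Plxnd1 and Sema3b) held in every alternative in which the gene was tested, and 8 were lost in at least 1. Apart from the replicate block, Sema3a was also lost with a pseudocount of 0.5 and with TPM scaling (adjusted p 0.052 and 0.051, limma) and Epha1 with no filter (adjusted p 0.055, limma).

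With the filter of 5 FPKM, where fewer genes were tested, 5 of 20 guidance genes rose and 4 fell, and 5 of 49 partner genes fell, among 964 rises and 1057 falls over all 8686 genes. On recovered reads (voom) 12 guidance genes rose and 7 fell, among 1430 and 1272 of all tested genes. With TPM scaling 5 partner genes fell, and the cause was not tested. With 1 library left out the higher guidance genes numbered 5 to 13 and the lower 6 to 7, the higher partner genes 13 to 21 and the lower 4 to 7, and the higher genes of all tested 791 to 1226 and the lower 862 to 1325, the lowest of the last counts without WT replicate 1. Log2 fold changes that did not pass changed sign with 1 library left out for Ephb2 (-0.16 to 0.058), Ephb6 (-0.15 to 0.0023), Robo1 (-0.036 to 0.20), Nrp2 (-0.12 to 0.27) and Plxnb2 (-0.011 to 0.15).

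The labels give both groups replicates 1 to 3. Correlations of deviations from the group means between samples of the same number were -0.096, 0.10 and 0.17. Between samples of different numbers they ran from -0.19 to 0.10, and not every sample correlated best with its own number. Deviations of 3 samples from their own mean constrain each other, so these values cannot decide whether samples of the same number were paired. With the replicate block 14 guidance genes rose and 8 fell, 21 and 8 partner genes, and 1277 and 1375 of all tested genes. The block ended the calls of Sema3a and Sema4g (adjusted p 0.086 and 0.054, limma). With it Sema3c, Sema3d, Ntn4, Efna3, Sema5b and Unc5b passed (adjusted p 0.013, 0.0096, 0.0060, 0.028, 0.034 and 0.048, limma).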
